A study of Mus musculus with 6 samples.

Results

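Transfer RNAs are charged with their amino acids by the aminoacyl-tRNA synthetases, and the genes of 35 of these enzymes were followed here in mouse erythroid cells after knockdown of the histone methyltransferase SetD8. The members were taken by name: a non-control probe counted if its gene name was that of a listed synthetase or its current symbol. This gave 44 probes for 35 genes, of 55681 probes and 22230 named genes on the array. The 20 genes whose names lack a final 2 were treated as cytosolic enzymes and the 15 whose names end in 2 as mitochondrial ones. The G1E-ER-GATA-1 line, from which total RNA was taken, consists of mouse erythroid precursors with a disrupted Gata1 gene that express an estrogen receptor fusion of GATA-1. In the 3 SetD8 siRNA samples, the cells were nucleofected with siRNA against SetD8 at 0 h and again at 24 h. The 3 control siRNA samples received non-targeting siRNA at the same times. Both groups were given β-estradiol at 24 h, which activates the fusion protein, and both were harvested at 48 h, so all 6 samples share the fusion protein and 24 h of estradiol. The cells are 1 line, no sample without estradiol was analysed here, and no label says whether replicates came from separate cultures, so each p-value reflects array-to-array spread alone, possibly of technical origin.

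A synthetase joins an amino acid to its tRNA at the cost of ATP, and the charged tRNA then brings that amino acid to the ribosome. The enzymes fall into class I and class II by the fold of their catalytic domain, and several cytosolic ones sit together in a multisynthetase complex held by the scaffold proteins Aimp1, Aimp2 and Eef1e1. The mitochondrial enzymes are encoded by separate nuclear genes for most amino acids, while Gars and Kars each serve both compartments. The transcription factor ATF4, whose protein is made when amino acids run short or the heme-regulated kinase of erythroid cells is active, is known to drive transcription of many cytosolic synthetases along with genes of amino acid uptake and synthesis. SetD8, also called Kmt5a, places a single methyl group on lysine 20 of histone H4.

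Signals were compared in 2 ways. The first was normexp background correction followed by quantile normalization between arrays, and the second was the scanner's processed signal minus the 75th percentile of each array, both on the log2 scale. Levels below are log2 signals after normexp and quantile normalization unless the 75th percentile scaling is named, and differences are SetD8 siRNA minus control siRNA, with limma p-values adjusted over 14427 genes and a threshold of 0.05. The share of spots well above background was 60.3% to 68.6% on the SetD8 siRNA arrays and 40.2% to 82.5% on the control siRNA arrays, and no spot was saturated. Setd8 itself had 9.58, 9.26 and 9.24 on the SetD8 siRNA arrays, against 11.49, 11.57 and 11.23 on the control siRNA arrays. The groups stood apart by a wide margin, with a difference of -2.07 ± 0.15 (SE; 95% interval -2.44 to -1.70; adjusted p = 0.00842) by limma. At the 75th percentile scaling the difference was -2.24 (adjusted p = 0.683) and did not pass. Its other probe differed by -1.13, and the exact two-sided permutation test gave p = 0.10 for both probes, which is the minimum with 3 arrays on either side. The call after quantile normalization was lost without SetD8 replicate 1, 2 or 3 or without control replicate 1 (adjusted p of 0.0539 to 0.0821), with differences of -2.19 to -2.01.

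A 60-base probe is printed for each of 4 synthetases. The difference between groups was highest for Qars and among the lowest for Mars in the cytosolic list. It was lowest for Yars2 in the mitochondrial list, and the values of these genes rest on the probes printed. The probes of Wars gave unlike differences, and the second is printed, which is not the one behind the levels of Wars below. Positions are on mm9, as in the file headers, and each sequence is in lower case with no capitals because no stretch of it is singled out. The Qars probe at chr9:108417534-108418156 covers 623 bases of the genome with 60 bases of sequence, so it is interrupted there, while the Mars probe at chr10:126733940-126733999, the second Wars probe at chr12:110104366-110104425 and the Yars2 probe at chr16:16307393-16307452 are each unbroken. Each probe sequence has at least 1 reading frame without a stop codon.
Qars: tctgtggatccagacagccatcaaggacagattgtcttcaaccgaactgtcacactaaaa
Mars: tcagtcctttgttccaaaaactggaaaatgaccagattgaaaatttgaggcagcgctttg
Wars: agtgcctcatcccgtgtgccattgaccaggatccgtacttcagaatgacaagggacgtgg
Yars2: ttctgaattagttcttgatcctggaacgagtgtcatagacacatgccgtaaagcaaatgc

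Cytosolic synthetases lay mostly below control after SetD8 siRNA and mitochondrial ones were spread around it, but no single member passed the test. Of the 35 genes, 33 were measured, meaning that a probe stood well above background throughout 1 of the groups or both: 19 of 20 cytosolic and 14 of 15 mitochondrial. Eprs, which charges both glutamate and proline tRNAs, was well above background on 1 SetD8 siRNA array and 2 control siRNA arrays, and Nars2, the mitochondrial asparagine enzyme, on 0 of 6. By limma, 0 of 33 members passed adjusted p 0.05 after quantile normalization, where 1.69% of all genes passed (1.46% higher and 0.236% lower), and 0 of 33 at the 75th percentile scaling, where 0% of all genes passed. At that scaling the test also called none of the changed genes in simulated data, so its count of 0 says nothing of the members. At an unadjusted p under 0.05 after quantile normalization, 11 members were lower and 3 higher, against 6.4% and 9.37% of all genes (15.8% in either direction); at the 75th percentile scaling there were 0, against 3.08% of all genes. With other choices some members passed: 8 with trend and robust moderation after quantile normalization (Gars, Cars, Iars, Nars, Aars and Mars lower, Qars and Fars2 higher), where 6.77% of all genes passed, and 2 when probes had to be well above background on all 6 arrays (Gars and Cars, lower), where 5.48% passed. Array weights gave 17 and 21 members after quantile normalization and at the 75th percentile scaling, where 27% and 42.1% of all genes passed, and percentiles over detected probes gave 1, Gars, in each setting, where 1.17% and 0.908% passed. In these bulk samples, fewer cells of a kind and less RNA per cell cannot be told apart.

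The arrays of the groups did not overlap for 9 cytosolic enzymes that were lower and 3 that were higher after quantile normalization, with 7 overlapping. Among the mitochondrial enzymes 2 were lower, 1 was higher and 11 overlapped. Over all genes, 9.95% had SetD8 siRNA arrays entirely below and 13.7% entirely above the control siRNA arrays. The median difference was -0.36 for the 19 cytosolic enzymes, 14 of them below 0, and 0.035 for the 14 mitochondrial enzymes, 6 of them below 0, beside 0.033 over all genes with 44.9% below 0. At the 75th percentile scaling only 2 cytosolic enzymes, Gars and Yars, had SetD8 siRNA arrays entirely below control and 0 members entirely above, against 2.11% and 5.45% of all genes.

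**Figure D1:**
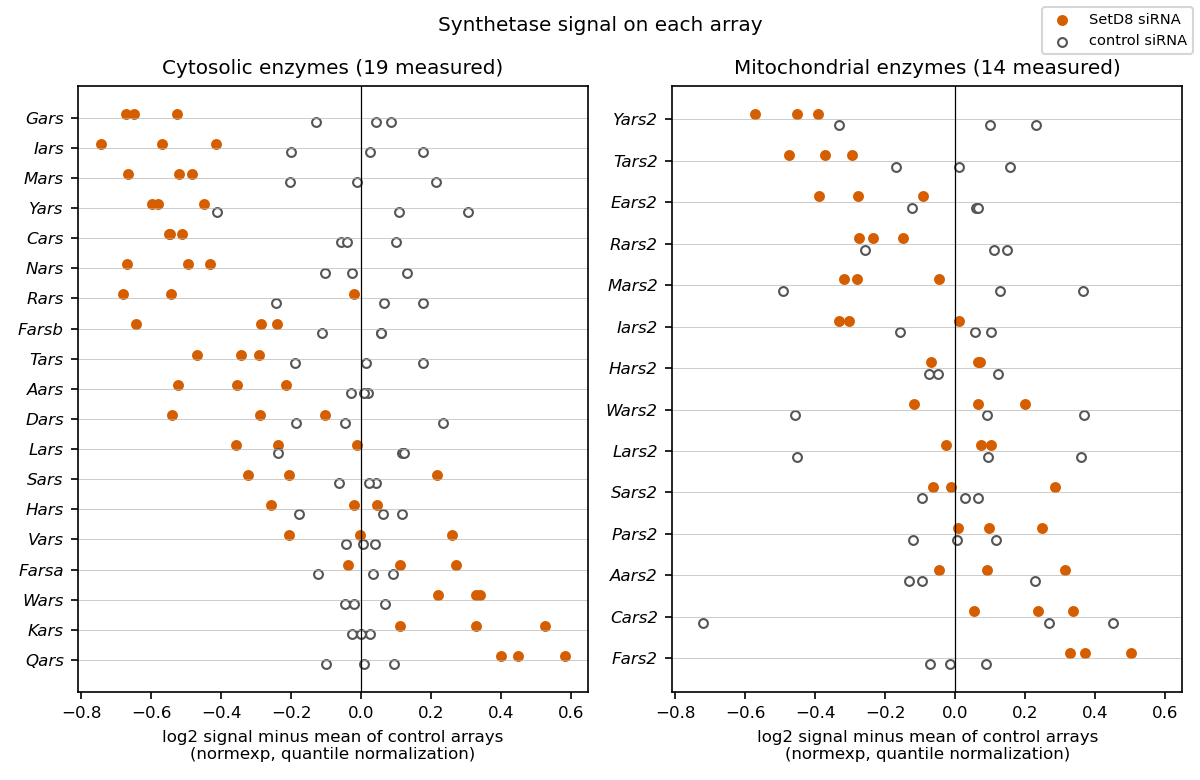
Log2 signal on each array minus the mean of the control siRNA arrays, after normexp and quantile normalization, for the 19 measured cytosolic synthetases (left) and the 14 measured mitochondrial ones (right), ordered by their difference. Filled points are the 3 SetD8 siRNA arrays and open points the 3 control siRNA arrays; SetD8 siRNA arrays lie entirely left of the control arrays for 9 cytosolic and 2 mitochondrial enzymes and entirely right for 3 and 1.

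Among the cytosolic enzymes the members known as ATF4-dependent made up most of the low end. This list of 12, of which 11 were measured, had 10 below 0 and a median difference of -0.53; 8 had non-overlapping groups on the low side and 1, Wars, on the high side. The 8 other cytosolic enzymes had a median of -0.030 with 4 below 0, 1 entirely below control and 2 entirely above. Over all genes 9.95% lay entirely below and 13.7% entirely above. At the 75th percentile scaling 2 of the 11, Gars and Yars, lay entirely below control and 0 entirely above. Of the 8 others 0 lay entirely on either side there, against 2.11% below and 5.45% above over all genes. Neither list held a member past the adjusted threshold.

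Gars, the glycine enzyme and one of those used in both cytosol and mitochondria, had 14.63, 14.49 and 14.51 on the SetD8 siRNA arrays, against 15.24, 15.20 and 15.03 on the control siRNA arrays. Every SetD8 siRNA array was below every control array, and the difference was -0.62 ± 0.12 (SE; 95% interval -0.89 to -0.34; adjusted p = 0.0619), the smallest adjusted p of any member. It was -0.68 within slide 1 and -0.52 within slide 3. Cars, which charges cysteine tRNA, had 12.11, 12.14 and 12.10 on the SetD8 siRNA arrays, against 12.75, 12.59 and 12.61 on the control siRNA arrays. The SetD8 siRNA arrays agreed to within a few hundredths of a log2 unit and lay below all controls, for a difference of -0.54 ± 0.11 (SE; 95% interval -0.79 to -0.28; adjusted p = 0.0678).

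Nars, the asparagine enzyme, had 9.85, 9.91 and 9.67 on the SetD8 siRNA arrays, against 10.32, 10.47 and 10.24 on the control siRNA arrays. Again the groups were separate, and the difference was -0.53 ± 0.12 (SE; 95% interval -0.83 to -0.23; adjusted p = 0.100). Mars, which charges both initiator and elongator methionine tRNAs, had 9.50, 9.54 and 9.36 on the SetD8 siRNA arrays, against 10.01, 10.24 and 9.82 on the control siRNA arrays. Its probe, printed above, was lower on every SetD8 siRNA array, with a difference of -0.56 ± 0.14 (SE; 95% interval -0.90 to -0.21; adjusted p = 0.121). Iars, the isoleucine enzyme of the multisynthetase complex, had 11.40, 11.25 and 11.07 on the SetD8 siRNA arrays, against 11.84, 11.99 and 11.61 on the control siRNA arrays. This too was a separation without overlap, with a difference of -0.58 ± 0.15 (SE; 95% interval -0.93 to -0.22; adjusted p = 0.124). Aars, the alanine enzyme, had 13.93, 14.07 and 13.76 on the SetD8 siRNA arrays, against 14.30, 14.29 and 14.25 on the control siRNA arrays. Here the control arrays were close together and the SetD8 siRNA arrays more scattered but all lower, and the difference was -0.36 ± 0.12 (SE; 95% interval -0.65 to -0.076; adjusted p = 0.203).

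Yars (tyrosine) and Tars (threonine) also had SetD8 siRNA arrays entirely below control, with differences of -0.54 (adjusted p = 0.247) and -0.37 (adjusted p = 0.25). For Lars (leucine) and Sars (serine) the groups overlapped, with differences of -0.20 and -0.11. Wars, the tryptophan enzyme, which is also known as an interferon-induced gene, ran the other way. It had 12.97, 13.09 and 13.08 on the SetD8 siRNA arrays, against 12.73, 12.70 and 12.82 on the control siRNA arrays, so every SetD8 siRNA array was the higher, and the difference was 0.29 ± 0.11 (SE; 95% interval 0.042 to 0.55; adjusted p = 0.238). Its second probe, printed above, overlapped between groups and differed by -0.081, so the sign of the Wars difference depends on the probe.

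The cytosolic enzymes outside the ATF4-dependent list were mixed. Qars, the glutamine enzyme of the multisynthetase complex, had 13.72, 13.86 and 13.67 on the SetD8 siRNA arrays, against 13.37, 13.28 and 13.18 on the control siRNA arrays. Its SetD8 siRNA arrays were all higher, with a difference of 0.48 ± 0.12 (SE; 95% interval 0.20 to 0.75; adjusted p = 0.107), and the values were 0.42 within slide 1 and 0.50 within slide 3. Kars, the lysine enzyme shared by both compartments, was also higher on every SetD8 siRNA array, by 0.32 (adjusted p = 0.324). Farsb, the beta subunit of the phenylalanine enzyme, was lower on every SetD8 siRNA array, with a difference of -0.39 (adjusted p = 0.26), while its partner Farsa, the alpha subunit, overlapped at 0.11. The 3 probes of Farsa ranged from -0.25 to 0.11. Rars (arginine), Dars (aspartate), Hars (histidine) and Vars (valine) overlapped between groups, at -0.41, -0.31, -0.078 and 0.017.

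**Figure D2:**
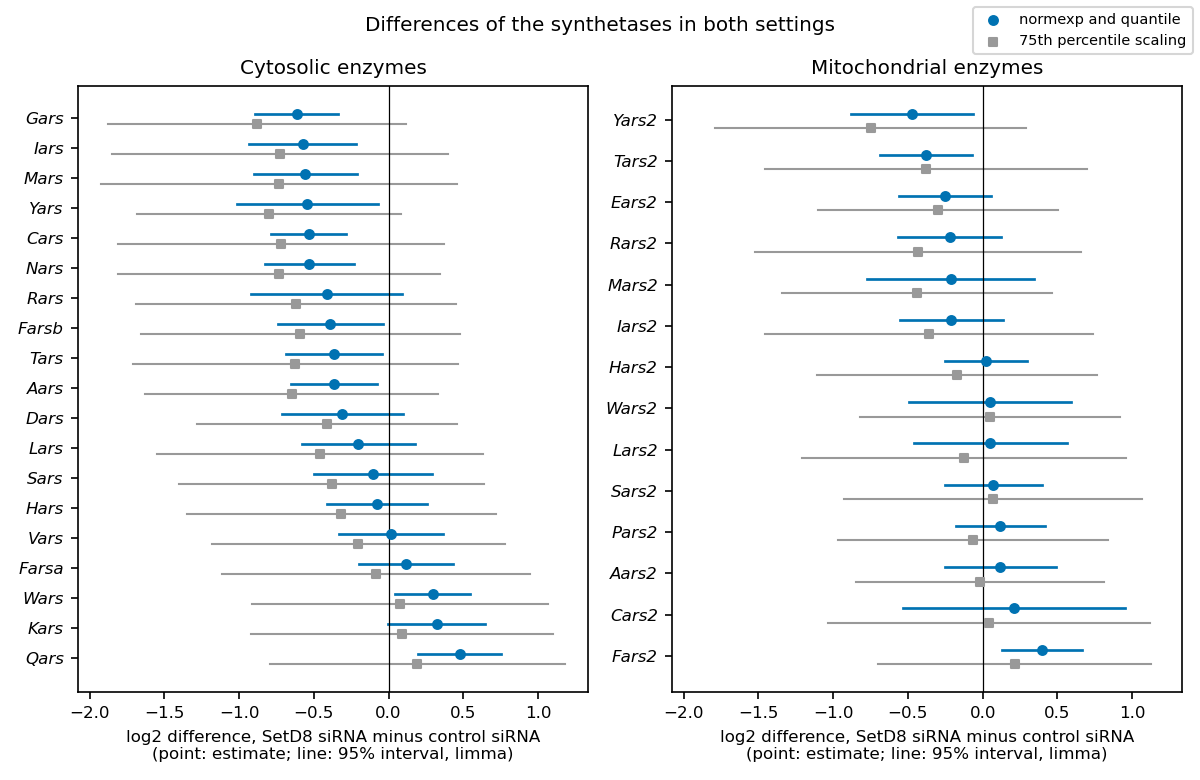
Log2 difference, SetD8 siRNA minus control siRNA, of each measured synthetase with its 95% limma interval, for cytosolic (left) and mitochondrial enzymes (right). Circles are after normexp and quantile normalization and squares at the 75th percentile scaling, where the intervals are wider and every one of them spans 0; 0 members passed the adjusted threshold in either setting.

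A promoter motif was searched because the ATF4-dependent members lay together at the low end. ATF4 with a C/EBP partner is known to bind composite elements of the form TGATGNAA. RefSeq promoters of GRCm38.p6 (250 bases before to 50 after the gene start) were held for 26 members, 13 in each compartment. On either strand TGATGNAA occurred in 5 of the 13 cytosolic promoters, all 5 of them among the 8 ATF4-dependent members with a promoter, and in 0 of the 13 mitochondrial ones, against 3.97% of 32851 promoters of the same length. The narrower TGATGCAA occurred in 4 members, not in Gars, and in 0.895% of all promoters. Of the 4 other motifs searched, CACGTG was in 5 members (7.15% of all promoters), TGACG in 10 (20.8%), ATTGG in 13 (37.4%) and CCGGAAG in 9 (8.86%). CACGTG was also mostly cytosolic, in 4 cytosolic and 1 mitochondrial promoters, and in 3 of the 8 ATF4-dependent ones (Aars, Iars and Tars). The cytosolic and mitochondrial counts were 5 and 5 for TGACG, 7 and 6 for ATTGG, and 5 and 4 for CCGGAAG. The motifs were chosen with the differences known, a match is a description of the letters and not of binding, and windows can hold several motifs at once. The listed members were already known to depend on ATF4, so its element among them is no finding of these arrays. The part of ATF4 in the differences was not tested.

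The 5 promoters with TGATGNAA are printed to show where it stands, 5′ to 3′ on the strand of the gene, with the motif or its reverse complement TTNCATCA in capitals. They are Gars at chr6:55037751-55038050 (plus strand), Iars at chr13:49681880-49682179 (plus strand), Yars at chr4:129189653-129189952 (plus strand), Tars at chr15:11399609-11399908 (minus strand) and Aars at chr8:111033592-111033891 (plus strand), all on GRCm38.p6. Aars holds 2 matches and the others 1 each. In Yars and Iars the match lies past the annotated start, at bases 254 to 261 and 258 to 265 of the 300, and in Gars and Tars it ends 22 and 7 bases before the start. After quantile normalization all 5 genes had SetD8 siRNA arrays entirely below control, against 9.95% of all genes, with differences of -0.36 to -0.62. They belong to the ATF4-dependent list, in which 8 of 11 measured members lay entirely below control. Of the ATF4-dependent members with a promoter in the table, Mars, with a difference of -0.56, Sars, with -0.11, and the untested Eprs lacked the motif.
Gars: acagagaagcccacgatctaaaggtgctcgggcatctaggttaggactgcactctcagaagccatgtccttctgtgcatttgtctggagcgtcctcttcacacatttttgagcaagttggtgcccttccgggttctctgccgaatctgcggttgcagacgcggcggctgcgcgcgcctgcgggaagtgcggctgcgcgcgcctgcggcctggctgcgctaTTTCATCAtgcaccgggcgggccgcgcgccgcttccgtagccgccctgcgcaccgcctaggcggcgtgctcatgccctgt
Iars: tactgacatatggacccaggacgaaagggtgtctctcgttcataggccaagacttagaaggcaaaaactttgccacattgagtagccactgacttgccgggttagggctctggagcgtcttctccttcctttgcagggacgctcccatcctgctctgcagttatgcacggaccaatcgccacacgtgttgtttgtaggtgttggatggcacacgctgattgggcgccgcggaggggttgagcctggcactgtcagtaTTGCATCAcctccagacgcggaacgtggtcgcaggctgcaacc
Yars: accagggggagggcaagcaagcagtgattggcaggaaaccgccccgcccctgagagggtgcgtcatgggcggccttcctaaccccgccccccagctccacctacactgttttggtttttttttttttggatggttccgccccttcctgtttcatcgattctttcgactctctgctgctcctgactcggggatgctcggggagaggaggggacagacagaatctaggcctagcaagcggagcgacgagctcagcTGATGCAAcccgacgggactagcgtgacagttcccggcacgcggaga
Tars: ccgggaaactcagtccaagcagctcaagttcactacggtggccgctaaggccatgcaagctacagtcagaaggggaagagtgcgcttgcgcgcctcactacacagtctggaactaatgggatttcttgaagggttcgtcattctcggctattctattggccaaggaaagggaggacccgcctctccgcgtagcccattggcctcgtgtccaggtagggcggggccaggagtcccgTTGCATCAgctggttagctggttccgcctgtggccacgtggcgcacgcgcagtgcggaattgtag
Aars: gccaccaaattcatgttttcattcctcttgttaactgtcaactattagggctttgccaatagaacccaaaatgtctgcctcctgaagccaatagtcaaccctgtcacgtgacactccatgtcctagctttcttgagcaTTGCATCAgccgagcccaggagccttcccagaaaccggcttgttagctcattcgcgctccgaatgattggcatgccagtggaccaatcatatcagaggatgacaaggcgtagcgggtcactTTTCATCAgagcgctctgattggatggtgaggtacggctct

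Mitochondrial synthetases, which charge the tRNAs used to make the proteins encoded by mitochondrial DNA, were on both sides of 0. Fars2, the phenylalanine enzyme of the organelle, had 11.94, 11.99 and 12.12 on the SetD8 siRNA arrays, against 11.60, 11.54 and 11.70 on the control siRNA arrays. All SetD8 siRNA arrays were higher, with a difference of 0.40 ± 0.11 (SE; 95% interval 0.13 to 0.67; adjusted p = 0.145), the smallest adjusted p among the mitochondrial members. Tars2 (threonine) had 10.60, 10.68 and 10.50 on the SetD8 siRNA arrays, against 10.80, 11.13 and 10.98 on the control siRNA arrays. It was lower without overlap, with a difference of -0.38 ± 0.13 (SE; 95% interval -0.69 to -0.072; adjusted p = 0.213). Yars2 (tyrosine) had 8.52, 8.46 and 8.34 on the SetD8 siRNA arrays, against 9.01, 9.15 and 8.58 on the control siRNA arrays. Its SetD8 siRNA arrays were also all lower, though control 3 came near them, and the difference was -0.47 ± 0.17 (SE; 95% interval -0.88 to -0.062; adjusted p = 0.244).

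The next mitochondrial members by p overlapped between groups. Ears2, whose product charges glutamate and is also the start of the route to mitochondrial glutaminyl-tRNA, had 7.98, 7.68 and 7.79 on the SetD8 siRNA arrays, against 8.13, 8.14 and 7.95 on the control siRNA arrays. Only SetD8 replicate 1 reached into the control range, and the difference was -0.25 (adjusted p = 0.416). Rars2 (arginine) had 10.69, 10.61 and 10.57 on the SetD8 siRNA arrays, against 10.95, 10.99 and 10.58 on the control siRNA arrays; the lowest array was a SetD8 siRNA one, but control 3 lay beside it, and the difference was -0.22 (adjusted p = 0.555). Iars2 (isoleucine) had 9.78, 9.46 and 9.43 on the SetD8 siRNA arrays, against 9.82, 9.87 and 9.61 on the control siRNA arrays. One SetD8 siRNA array lay among the controls, and the difference was -0.21 (adjusted p = 0.58). Pars2 (proline) had 10.29, 10.53 and 10.38 on the SetD8 siRNA arrays, against 10.16, 10.29 and 10.40 on the control siRNA arrays, with no separation and a difference of 0.12 (adjusted p = 0.739), and its second probe differed by -0.34. Mars2 (methionine) had 7.20, 7.17 and 7.44 on the SetD8 siRNA arrays, against 7.61, 7.85 and 6.99 on the control siRNA arrays. Control 3 was the lowest of all 6 arrays, and the difference was -0.21 (adjusted p = 0.746). The 6 remaining measured enzymes, Aars2, Cars2, Hars2, Lars2, Sars2 and Wars2, overlapped between groups with differences of 0.022 to 0.21; the second probe of Cars2 differed by -0.18, opposite in sign to the first.

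Both compartments could be set side by side within an array for the 11 amino acids that have a measured enzyme in each. The log2 signal of the cytosolic enzyme minus that of its mitochondrial counterpart was taken on each array, which removes any scaling constant of the array, and only its difference between groups was read. It does not remove a shift that depends on signal strength. At the 75th percentile scaling the median difference was -0.18 over the brightest 4809 genes and -0.034 over the middle 4809. The brightest held 16 of 19 cytosolic enzymes and the middle 9 of 14 mitochondrial ones. After quantile normalization the log2 ratio of cytosolic over mitochondrial enzyme was lower after SetD8 siRNA in 9 of 11 pairs. It was lower without overlap in 4 pairs (alanine, cysteine, isoleucine and methionine) and higher without overlap in 0. The differences were -0.74 for Cars over Cars2, -0.48 for Aars over Aars2, -0.37 for Iars over Iars2 and -0.34 for Mars over Mars2, and the median of the 11 was -0.20. The first of these rests on the Cars2 probe that differed by 0.21, while its other kept probe differed by -0.18. Mars over Mars2 separated narrowly, with 2.38 on SetD8 siRNA replicate 2 and 2.39 on control replicate 2, and it overlapped at the 75th percentile scaling. At the 75th percentile scaling 10 of 11 were lower, 6 without overlap, with a median of -0.29. How many ratios of other gene pairs would separate on these arrays was not counted. Within slide 1 and within slide 3 the ratio was lower in 9 and 9 of 11 pairs after quantile normalization, and in 11 and 10 of 11 at the 75th percentile scaling. Tryptophan was higher in both settings, by 0.25 and 0.027 as differences. The smallest exact two-sided permutation p of any pair was 0.10, the lowest 3 against 3 can give, or 0.275 and 0.183 after Benjamini-Hochberg adjustment over the 11 pairs.

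**Figure D3:**
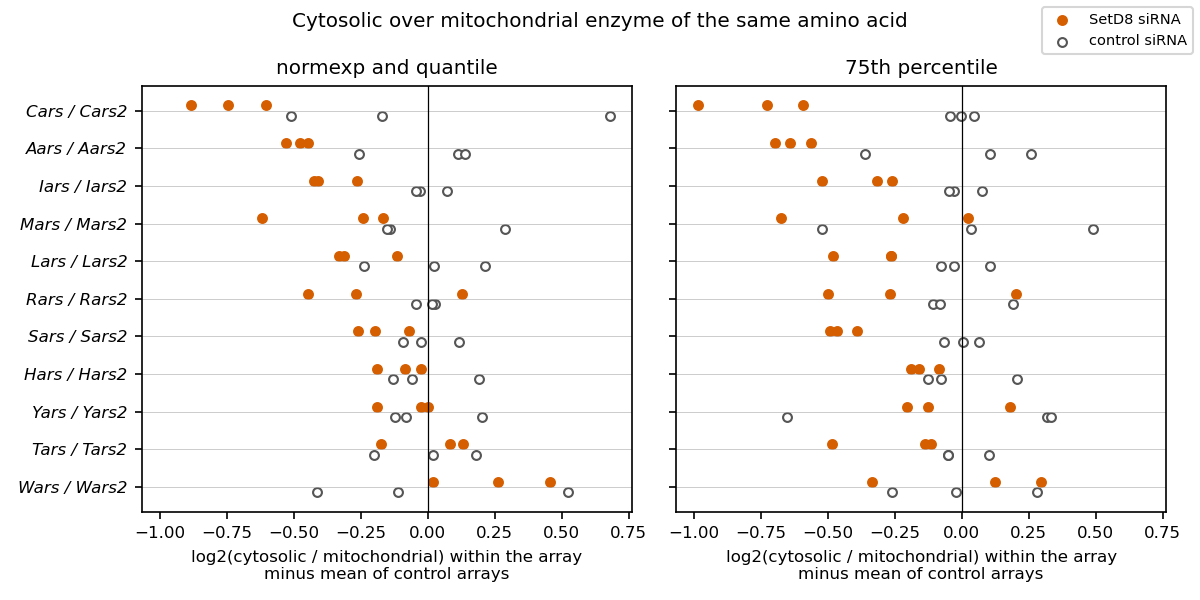
Log2 ratio of the cytosolic over the mitochondrial enzyme of the same amino acid within each array, minus the mean of the control siRNA arrays, for 11 amino acids after normexp and quantile normalization (left) and at the 75th percentile scaling (right). Filled points are SetD8 siRNA arrays and open points control siRNA arrays; 9 of 11 pairs lie lower on average on the left and 10 of 11 on the right.

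The enzymes were also divided by class, by complex and by list, with no test between the divisions. Class I cytosolic enzymes had a median difference of -0.41 (6 of 9 below 0) and class II ones -0.34 (8 of 10 below 0). The 7 measured enzymes of the multisynthetase complex had -0.31 (5 below 0), and the 12 cytosolic enzymes outside it -0.37 (9 below 0). In the mitochondria, class I enzymes had -0.21 (5 of 8 below 0) and class II ones 0.094 (1 of 6 below 0). By array, the median deviation of the 11 ATF4-dependent enzymes from the control mean was -0.42, -0.45 and -0.55 on the SetD8 siRNA arrays and 0.026, 0.11 and -0.13 on the control siRNA arrays. For the 8 other cytosolic enzymes it was -0.012, 0.15 and -0.15 on the SetD8 siRNA arrays and 0.045, 0.048 and -0.11 on the control siRNA arrays. The mitochondrial enzymes had 0.0096, -0.072 and -0.055 on the SetD8 siRNA arrays and 0.078, 0.13 and -0.14 on the control siRNA arrays. All 19 measured cytosolic enzymes together had -0.29, -0.29 and -0.34 on the SetD8 siRNA arrays and 0.034, 0.057 and -0.11 on the control siRNA arrays. After quantile normalization the groups of arrays thus stood apart for the ATF4-dependent enzymes and for the cytosolic enzymes as a whole, and overlapped for the other cytosolic and the mitochondrial enzymes. They overlapped at the 75th percentile scaling for all 4 of these groups of enzymes. No test was made over a list.

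**Figure D4:**
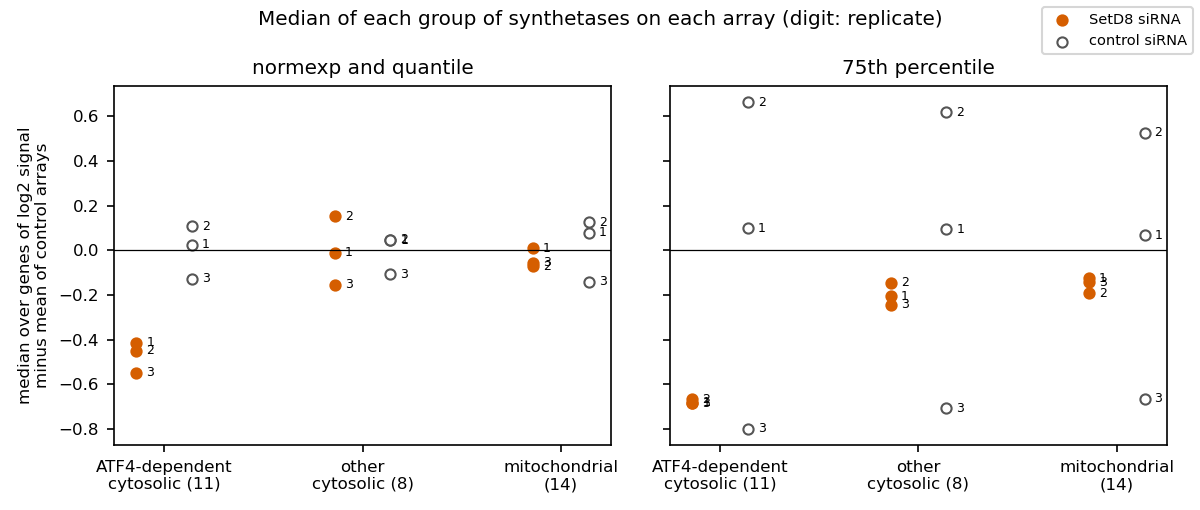
Median over the genes of a list of the log2 signal minus the mean of the control siRNA arrays, on each array, after normexp and quantile normalization (left) and at the 75th percentile scaling (right); filled points are SetD8 siRNA arrays, open points control siRNA arrays, and the digit is the replicate. On the left the ATF4-dependent medians are -0.55 to -0.42 on the SetD8 siRNA arrays and -0.13 to 0.11 on the control siRNA arrays; on the right the control arrays spread from -0.80 to 0.66 and the SetD8 siRNA arrays lie inside that range.

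How far the enzymes lay below control depended on the scaling and on single control arrays. At the 75th percentile scaling the cytosolic median was -0.59 (16 of 19 below 0) and the mitochondrial median -0.15 (10 of 14 below 0), with all genes at 0.045 and 46.8% below 0. The differences there were -0.88 for Gars, -0.72 for Cars, -0.73 for Nars, -0.73 for Mars, -0.72 for Iars, -0.65 for Aars, 0.19 for Qars and 0.21 for Fars2, with adjusted p of 0.951 to 0.953 in limma. Within slide 1, which held SetD8 1, SetD8 2 and control 1, the cytosolic median at that scaling was -0.65, the mitochondrial median -0.26 and that of all genes -0.11. Within slide 3, which held SetD8 3 and control 3, the cytosolic median was 0.21, with 6 of 19 below 0, the mitochondrial median 0.44 and that of all genes 0.39. On slide 3 the cytosolic median was therefore above 0 but below the median of all genes. After quantile normalization the cytosolic median was -0.32 within slide 1 and -0.30 within slide 3, the mitochondrial median -0.056 and -0.017, and that of all genes 0.0082 and 0.056. Leaving out control 2, the only array of slide 2 and of its scan day, moved the cytosolic median at the 75th percentile scaling to -0.25 and the mitochondrial one to 0.11, and leaving out control 3 moved them to -0.96 and -0.46.

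Over 8 scalings the cytosolic median was always negative, from -1.09 to -0.34, and lay 0.40 to 0.64 below the median of all genes. Scalings that differ only by a constant per array share the same value relative to all genes, so the 8 are not separate checks. The mitochondrial median ran from -0.65 to 0.054 and changed sign. Qars, Kars, Wars, Fars2, Cars2 and Wars2 were positive in 7 of 8 scalings and negative under median scaling, where the median of all genes was itself -0.45. Relative to the median of all genes they were higher in all 8, though Cars2 and Wars2 by as little as 0.00076 and 0.0024. Bright genes behaved differently from dim ones at the 75th percentile scaling, with a median of -0.18 over the brightest 4809 of the 14427 genes and 0.60 over the dimmest 4809, and the brightest held 16 of 19 cytosolic but 5 of 14 mitochondrial enzymes. Among those brightest genes the cytosolic median was -0.53, the mitochondrial -0.17 and that of all genes -0.18. After quantile normalization the brightest 4809 genes had a median of 0.00032, with -0.20 over their 15 cytosolic enzymes and 0.022 over their 5 mitochondrial enzymes. The part of signal strength in the difference between compartments was not tested further.

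Proteins that work beside the synthetases were read from lists of their own. Of the complex scaffolds, Aimp2 had 13.51, 13.61 and 13.54 on the SetD8 siRNA arrays, against 14.01, 14.08 and 13.97 on the control siRNA arrays, lower without overlap, with a difference of -0.47 ± 0.10 (SE; 95% interval -0.71 to -0.22; adjusted p = 0.0896). Eef1e1 overlapped between groups at -0.68 (adjusted p = 0.267) and Aimp1 at 0.057, so 0 of 3 passed. Of 13 other genes of tRNA charging, 0 passed, with 7 below 0 and a median of -0.0029. Gatb, a subunit of the mitochondrial glutaminyl-tRNA amidotransferase, differed by 0.41 (adjusted p = 0.241), Trnt1, which adds the CCA end of tRNAs, by -0.33 (adjusted p = 0.253), Pstk, a kinase in the making of selenocysteinyl-tRNA, by 0.34 (adjusted p = 0.278), and Xpot, the tRNA exporter, by -0.32 (adjusted p = 0.422).

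Genes of the ATF4 and amino acid response that are not synthetases lay on both sides of 0. Of 14 listed, 13 were measured, Chac1 being well above background on 0 arrays. In this list 1 fell, 0 rose, and 8 lay below 0 with a median of -0.34. After quantile normalization 8 were entirely below control and 2 entirely above, against 9.95% and 13.7% of all genes. At the 75th percentile scaling these counts were 2 and 1, against 2.11% and 5.45%. Atf4 itself differed by -0.52 after quantile normalization (adjusted p = 0.168 by limma) and was lower without overlap. Trib3, a pseudokinase induced by ATF4, had 9.97, 9.90 and 10.26 on the SetD8 siRNA arrays, against 11.28, 11.13 and 11.39 on the control siRNA arrays. It fell, with a difference of -1.22 ± 0.14 (SE; 95% interval -1.56 to -0.88; adjusted p = 0.019); with the slide as a block the adjusted p was 0.0581, and 0.951 in the 75th percentile setting. Shmt2 and Mthfd2, enzymes of mitochondrial folate metabolism, differed by -0.66 (adjusted p = 0.0734) and -0.58 (adjusted p = 0.125), and Psat1 of serine synthesis by -0.45 (adjusted p = 0.0886). Sesn2, which is a target of both ATF4 and p53, was on the other side at 1.16 (adjusted p = 0.0643), with all SetD8 siRNA arrays above control. Phgdh also had all SetD8 siRNA arrays above control, with a difference of 0.34 (adjusted p = 0.34).

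Marker genes were read beside these results. Of 8 erythroid markers 7 were measured and 0 passed, and their summed linear signal was 372000 to 379856 on the SetD8 siRNA arrays and 374147 to 382975 on the control siRNA arrays. Hba-a1, an alpha globin gene, made up 83.3% to 85.8% of that sum, and quantile normalization gave it the same value of 18.28 on all 6 arrays, so the sum can show little change. The 6 other measured markers summed to 52941 to 60796 on the SetD8 siRNA arrays and 55087 to 63915 on the control siRNA arrays. Slc4a1, the anion exchanger of maturing red cells, differed by -1.19 (adjusted p = 0.194), lower on every SetD8 siRNA array. Of 5 granulocyte and macrophage markers 3 were measured; Cd68, a lysosomal protein of macrophages, rose by 0.73 (adjusted p = 0.0341; 0.131 with the slide as a block), and the list summed to 1044 to 1224 on the SetD8 siRNA arrays and 763 to 826 on the control siRNA arrays. Elane of that list differed by 0.26 (adjusted p = 0.53). Adgre1 went the other way, at -0.11 (adjusted p = 0.788), with overlapping groups. Lyz2 and Mpo of that list were not measured, being well above background on 3 arrays and 1 array. Of 5 megakaryocyte markers 4 were measured and 0 passed, with sums of 10499 to 24294 on the SetD8 siRNA arrays and 6917 to 16985 on the control siRNA arrays, and 0 of 4 mast cell markers were measured. The 2 measured lymphoid markers of 3 summed to 885 to 1677 on the SetD8 siRNA arrays and 615 to 1669 on the control siRNA arrays, and the 1 measured stromal and endothelial marker of 3 had 136 to 153 on the SetD8 siRNA arrays and 135 to 186 on the control siRNA arrays. The part of these markers in the synthetase results was not tested.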

How the data were processed

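Linear spot intensity from 6 Cy3-labelled arrays was extracted by the authors with Agilent Feature Extraction 10.7.3.1, with probe positions on mm9, per the file headers. The submitters' processing notes name limma without a version; the authors' normalization between arrays is not given in the sources used, and the deposited series matrix holds the same processed intensity. Control spots were left out, spots of a probe averaged, and probes named through a RefSeq gene table of GRCm38.p6, used for names only, as 26821 by accession, 3750 by symbol and 623 by synonym; 24443 had no match.

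Probes were required to be well above background throughout 1 of the groups or both, and the brightest such probe by mean stood for its gene. In all, 2 settings were fitted over 14427 genes: log2 of the deposited processed intensity minus the array's 75th percentile, and normexp (offset 50) on mean and local background signals with quantile normalization. limma 3.58.1 (lmFit and eBayes, two-sided) was run in R 4.3.3 with the package data.table (version 1.17.8) and Benjamini-Hochberg adjustment at 0.05. The procedure had first been tested on simulated data, with noise drawn separately for each gene. After quantile normalization it recovered 61 of 100 genes at a log2 change of 1 and 84 of 100 at 2. At the 75th percentile scaling it recovered none. Changes as small as those of the members were not simulated. Tables were handled in Python 3.11.15 (pandas 2.3.3, numpy 2.4.6) and plots made in matplotlib 3.10.9. The number of arrays, 3 per group, limits the precision. An offset of 50 shrinks differences of dim genes.

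The members, the lists and the second setting were chosen with earlier results of these data known. Values on each array are given for up to 8 members of each compartment, those past the threshold or else with the smallest p after quantile normalization, and for the list genes that passed or that carry a result. Other list genes are given for up to 4 by smallest p, and Atf4 and Phgdh were added to those of their list. Same-numbered arrays did not deviate together (correlations of deviations of 0.19, -0.25 and -0.19 after quantile normalization). Alternatives were other scalings, backgrounds, filters, gene summaries, moderation, array weights, the series matrix, the slide or replicate number as a block, and each array left out; 1, the 75th percentile of normexp values over detected probes, was chosen after seeing the data.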

Additional observations from a re-analysis of the deposited data

How the results depend on the processing

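Setd8 and the cytosolic median stayed below 0 under every alternative setting run (within slide 3 alone, at the 75th percentile scaling, the cytosolic median was 0.21), and the mitochondrial median did not keep its sign. With 75th percentile scaling that median was -0.15, but 0.058 with the slide as a block, 0.014 with quantile normalization of the processed signal and 0.11 without control replicate 2. After quantile normalization it was 0.035, but -0.047 with the median of the kept probes, -0.068 with array weights and below 0 without SetD8 replicate 1 or 2 or control replicate 3. For results that answer a comparison, 112 alternative values kept their side of the threshold or moved by less than the spread between arrays; the exceptions follow, and the cause was not tested. Members past the threshold after normexp and quantile normalization numbered 0, but 2 with probes well above background on all 6 arrays (Gars and Cars, lower), 8 with trend and robust moderation (6 lower, 2 higher; 6.77% of all genes), 17 with array weights (13 lower, 4 higher; 27% of all genes) and 1 with the added 75th percentile over detected probes (Gars). At the 75th percentile scaling they numbered 0, but 21 with array weights (all lower; 42.1% of all genes) and 1 with the percentile over detected probes (Gars, adjusted p = 0.0441). Leaving out each array gave 0 in both settings. The cytosolic and mitochondrial medians were -1.09 and -0.65 under median scaling, and -0.51 and -0.12 with normexp and the 75th percentile in place of quantile normalization. Leaving out each array gave a cytosolic median of -0.37 to -0.29 and a mitochondrial one of -0.19 to 0.064 after quantile normalization, and of -0.96 to -0.25 and -0.46 to 0.11 at the 75th percentile scaling. Setd8 at that scaling passed with probes on all 6 arrays (-2.24), the slide as a block (-1.93), array weights (-2.42), the percentile over detected probes (-2.11), quantile normalization of the processed signal (-2.10) and normexp with the 75th percentile (-2.24); leaving out each array gave -2.74 to -1.84, and it passed without control replicate 2. After quantile normalization it ranged from -2.20 to -1.97 (adjusted p of 0.00734 to 0.0821) over left-out arrays. With the replicate number as a block its difference was -2.07 with adjusted p = 0.141 by limma, and members past the threshold numbered 0. Whether the numbers pair the arrays is not known. Signal over background limits what these arrays can show for weak genes such as Eprs, well above background on 3 of 6 arrays, and Nars2, on 0.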
